A study of Rattus norvegicus with 15 samples.

Results

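Gene expression in the ileum was set against that in the jejunum, the segment just before it in the small intestine, in mucosal cells of the rat. The comparison used 6 of the 15 samples of a survey of the gastrointestinal tract, 3 of ileal and 3 of jejunal mucosal cells, each chosen by its title, and covered 33530 genes. The remaining samples, 3 each of gastric, duodenal and colonic mucosal cells, entered the same model and, together with these 6, set the spread. Both groups came from untreated male Sprague Dawley rats, except that the label of ileum 3 gives neither strain nor sex. Animal age and pooling are not given in the sources used here. The gut was turned inside out, digested briefly with the protease mixture pronase, and the released mucosal cells were separated by elutriation. RNA from 3 independent isolations was amplified, labelled with Cy3 or Cy5 and hybridised to Agilent whole rat genome arrays. It is not said that the isolations came from separate animals, so p-values measure the spread between isolations. A level below is the log2 of the background-corrected signal minus the 75th percentile of that sample, so that a level of 0 is a fairly bright probe, and a difference is ileum minus jejunum on that log2 scale. Differences, standard errors (SE) and adjusted p-values are from limma with Benjamini-Hochberg adjustment over all genes, with n = 3 in each segment, and a gene was called at an adjusted p below 0.05.

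The jejunum is a main site for the digestion and uptake of sugars, fat and protein, and its enterocytes carry dense disaccharidases, sugar transporters and the machinery that packs fat into chylomicrons. The ileum takes up bile acids and cobalamin, houses many Paneth cells and lymphoid follicles, and holds the L cells that release peptide YY. Bile acids enter ileal enterocytes through an apical sodium-dependent transporter, are carried by a cytosolic binding protein and leave through a basolateral transporter made of an alpha and a beta subunit, and the nuclear bile acid receptor FXR switches on several of these genes.

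Of the 33530 genes, 490 were higher in ileum (1.46%) and 937 were lower (2.79%), together 4.26% of those tested, while 3731 and 3453 reached an unadjusted p below 0.05. The 3 ileal and the 3 jejunal samples did not overlap in 7755 genes (23.1%), among them 1403 of the 1427 called. Among called genes 479 were at least 2-fold higher and 866 at least 2-fold lower, and 16 and 30 passed 10-fold. Median signal was 258.7 to 410.7 in the jejunal samples and 300.1 to 1048.4 in the ileal ones, and 52.4 to 89.6% and 44.4 to 85% of spots were well above background. The ileal samples were all labelled with Cy3 on slides of their own, and the jejunal samples with Cy3, Cy3 and Cy5, each on an array it shared with a duodenal sample in the other dye, so slide, scan day and segment cannot be told apart.

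The difference moved with brightness. In the dimmest 11177 genes the median difference was 0.33, with 70 higher and 17 lower. In the 11176 genes of middle brightness it was 0.08, and in the brightest 11177 it was -0.16, with 187 higher and 798 lower. Over all genes the median was 0.10. It was -0.1 over the 19870 genes left when probes were filtered on ileal and jejunal samples alone. Of the genes called lower, 21 were saturated in all 3 ileal samples and 53 in 1 or 2 of them, so their ileal level is only a lower bound. With quantile normalisation in place of the percentile the calls were 475 higher and 637 lower, and the part of brightness in the lower calls was not tested.

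Correlations across genes were 0.916 to 0.966 between jejunal samples and 0.938 to 0.964 between ileal samples, against 0.891 to 0.955 between segments. Jejunum 1 stood apart from the other jejunal samples: the mean level of the cell proliferation list was -1.08 there against 0.61 and 0.50, and that of the lipid absorption list was 3.35 against 2.04 and 2.30. Ileum 2 lay nearer to the jejunal samples in the digestive lists than ileum 1 and 3 did, with 1.34 for the sugar list against 0.30 and 0.22. Leaving out jejunum 1 gave 178 higher and 303 lower genes, and leaving out jejunum 2 gave 1724 and 1892. Without ileum 1 the counts were 283 and 356, without ileum 2 they were 292 and 700, and without ileum 3 they were 148 and 356.

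**Figure D1:**
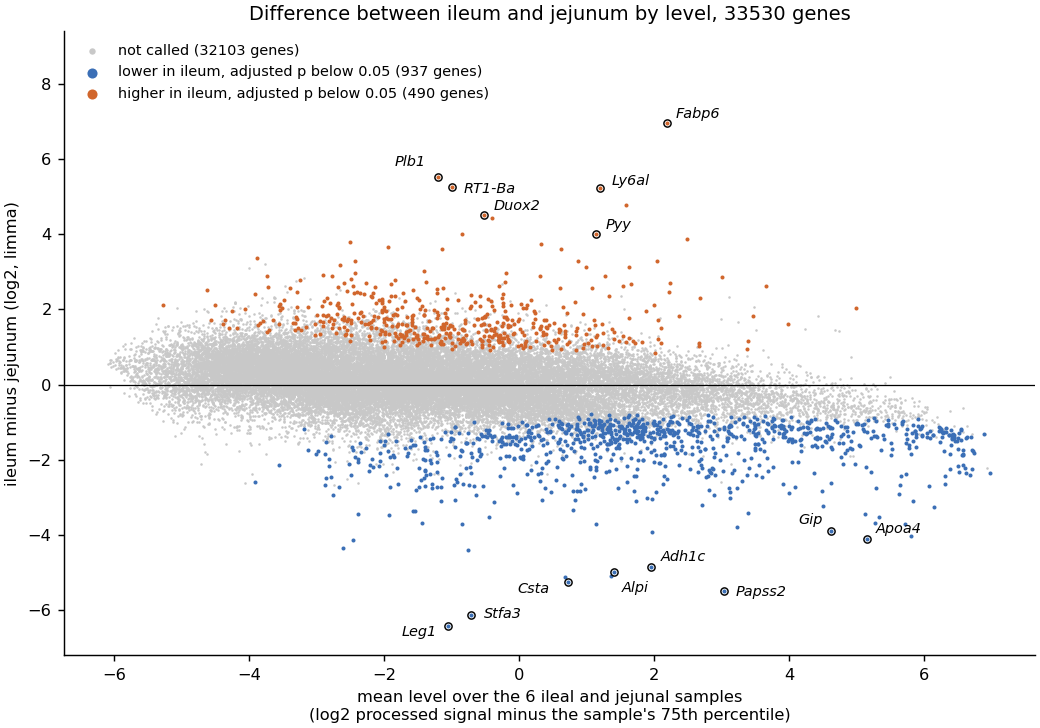
Difference between ileum and jejunum (log2, vertical axis) against the mean level over the 6 samples (log2, horizontal axis) for 33530 genes, with 490 called higher in orange, 937 called lower in blue and the rest in grey. Of the higher calls 70, 233 and 187 lie among the dimmest, middle and brightest genes, and of the lower calls 17, 122 and 798, and the median of the brightest genes lies below 0, at -0.16.

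Bile acid handling held the largest rise of the comparison among named genes. Fabp6, the ileal bile acid binding protein, had levels of -2.33, -1.04 and -0.39 in jejunum 1 to 3 and of 5.87, 6.03 and 4.96 in ileum 1 to 3. All ileal samples were far above all jejunal ones and were saturated, and 2 of 3 jejunal samples were well above background, so Fabp6 was at least 117-fold higher in ileum (difference 6.95 ± 0.41 SE, adjusted p = 1.05e-07). Slc51b, the beta subunit of the basolateral transporter, was 0.49, -0.25 and 0.66 in jejunum and 1.91, 2.88 and 3.56 in ileum, 6.14-fold higher (2.62 ± 0.37, adjusted p = 0.00115). Slc10a2, the apical sodium-dependent transporter, was 0.15, 0.89 and 0.69 in jejunum and 1.52, 1.71 and 2.53 in ileum, and rose 2.59-fold (adjusted p = 0.0184). In each of these genes no ileal sample fell to the jejunal range. In samples of mixed mucosal cells, fewer cells of a type and less RNA per cell cannot be told apart, here and in what follows.

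Of the 16 bile acid genes tested, 3 were higher and 1 was lower, and their median difference was 0.25 against 0.10 over all genes. The member that fell was Abcc2, an apical exporter of conjugates, with 2.81, 1.41 and 1.67 in jejunum and 0.38, 0.59 and 0.65 in ileum (-1.51 ± 0.33, adjusted p = 0.019). The alpha subunit Slc51a was not called, with 2.79, 2.35 and 2.54 in jejunum and 2.71, 3.24 and 3.34 in ileum (0.57 ± 0.32, adjusted p = 0.321), although normexp background correction gave 1.28 with an adjusted p of 0.00979. FXR, encoded by Nr1h4, was not called either (1.10 ± 0.41, adjusted p = 0.133), with ileal levels of -1.01, -0.38 and 0.53 all above the jejunal ones of -1.18, -1.33 and -1.53. Fabp6 and Slc51b kept their calls under all 21 alternative settings. Slc10a2 lost its call without ileum 3 (adjusted p = 0.0898) or jejunum 1 (0.0804), with Cy3 samples alone (0.0647) and with the 6 ileal and jejunal samples alone (0.083). Of the 4 calls, 2 remained without ileum 3 or without jejunum 1.

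The promoters of Fabp6 and Slc51b are shown because these were the members of the bile acid list with the largest rises, and because each holds the inverted repeat GGTGAATNACC, in capitals, a form of the paired half-sites that FXR is known to bind. They run from 250 bases before to 50 after the start of the gene, in the direction of transcription, from RefSeq on build GRCr8: Fabp6 at chr10:28569678-28569977, minus strand, and Slc51b at chr8:74835060-74835359, minus strand.
Fabp6: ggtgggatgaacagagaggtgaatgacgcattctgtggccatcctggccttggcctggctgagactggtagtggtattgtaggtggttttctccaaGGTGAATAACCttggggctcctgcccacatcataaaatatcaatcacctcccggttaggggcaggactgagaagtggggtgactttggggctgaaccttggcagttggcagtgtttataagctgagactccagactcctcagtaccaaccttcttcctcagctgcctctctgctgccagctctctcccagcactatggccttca
Slc51b: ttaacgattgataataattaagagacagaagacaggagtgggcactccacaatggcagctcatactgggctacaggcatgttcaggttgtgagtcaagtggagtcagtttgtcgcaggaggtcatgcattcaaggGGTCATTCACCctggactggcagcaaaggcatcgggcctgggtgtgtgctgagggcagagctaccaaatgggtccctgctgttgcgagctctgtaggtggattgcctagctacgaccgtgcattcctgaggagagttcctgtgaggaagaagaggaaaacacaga
The repeat starts at -154 in Fabp6 and, on the opposite strand, at -115 in Slc51b, counted from the gene's start. These letters were chosen after the promoters had been read, and on either strand they occur in 8 of 33469 RefSeq promoters of this length, or 0.0239%. The promoter of Slc10a2 does not hold them in this window. A match is a description of the sequence and does not show binding.

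Cobalamin uptake, the other classical task of the ileum, showed no called gene. None of the 12 tested members was called by limma, 2 reached an unadjusted p below 0.05, both higher, and their median was 0.32 against 0.10 for all genes. Among all 33530 genes 4.26% were called, and 3731 were higher and 3453 lower at an unadjusted p below 0.05. With 12 members, a lack of calls is near that share and is not particular to this list. Cubn, which encodes the receptor cubilin, was 0.52, 0.64 and 0.46 in jejunum and 0.13, 0.77 and 0.04 in ileum (-0.26 ± 0.31, adjusted p = 0.672). Its partner Amn was 2.99, 1.35 and 2.07 in jejunum and 0.95, 2.73 and 1.57 in ileum (adjusted p = 0.655). Ileal and jejunal samples overlapped in both genes.

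Besides Fabp6, 11 named genes made up the 12 largest rises with a settled symbol and no overlap. Plb1, a brush border phospholipase, was -5.25, -3.37 and -3.07 in jejunum and 2.06, 2.59 and -0.14 in ileum, 45.7-fold higher (5.51 ± 0.65, adjusted p = 0.000211). Duox2, the hydrogen peroxide producing dual oxidase, was -3.11, -2.28 and -2.86 in jejunum and 1.48, 1.54 and 2.13 in ileum, 22.8-fold higher (4.51 ± 0.32, adjusted p = 8.02e-07). Samples of the same segment lay close together in Duox2, whereas ileum 3 lay below the other ileal samples in Plb1. Ly6al, of the Ly6 family, rose 37.4-fold and Tmigd1, an immunoglobulin domain membrane protein, rose 27.3-fold. Ly6al was -2.07, -0.82 and -1.24 in jejunum and 3.03, 3.72 and 4.60 in ileum. Tmigd1 was -1.09, -0.67 and -0.51 in jejunum and 3.49, 3.80 and 4.49 in ileum. Every ileal sample was at least 4 log2 units above the jejunal mean of Ly6al and of Tmigd1. Sord, sorbitol dehydrogenase, rose 12.6-fold and Spink1, a trypsin inhibitor, rose 12.3-fold. The others, RT1-Ba, Pyy, Hbb-b1, Mmp7 and Pla2g2a, are given with their groups.

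The 12 largest falls were led by Leg1, which was 3.98, 1.09 and 1.07 in jejunum and -4.78, -1.68 and -5.98 in ileum, 85-fold lower (-6.41 ± 0.88, adjusted p = 0.000824). In ileum 1 of 3 samples was well above background for this gene. Stfa3 and Csta, of the stefin family of cysteine protease inhibitors, were 69.6-fold and 38.0-fold lower. Stfa3 was 4.04, 1.26 and 1.65 in jejunum and -3.48, -2.96 and -4.76 in ileum. Csta was 5.14, 1.90 and 2.82 in jejunum and -2.31, -1.54 and -1.67 in ileum. The stefins resemble each other closely, so their probes may share signal. Papss2, which makes the sulphate donor PAPS, was 7.2, 4.67 and 5.36 in jejunum and -0.76, 1.89 and -0.12 in ileum, 44.7-fold lower (-5.48 ± 0.60, adjusted p = 9.78e-05). Prap1, a secreted proline-rich protein, was 13.8-fold lower, Marcksl1, a MARCKS-like actin-regulating protein, 15.1-fold and Fam78b 13.2-fold. In most of these genes jejunum 1 was the highest of the 6 samples. Ghrl, Alpi, Adh1c, Apoa4 and Gip are given below. Of the 24 genes, 22 kept their calls under all 21 alternatives, and the exceptions were Mmp7 and Pla2g2a.

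**Figure D2:**
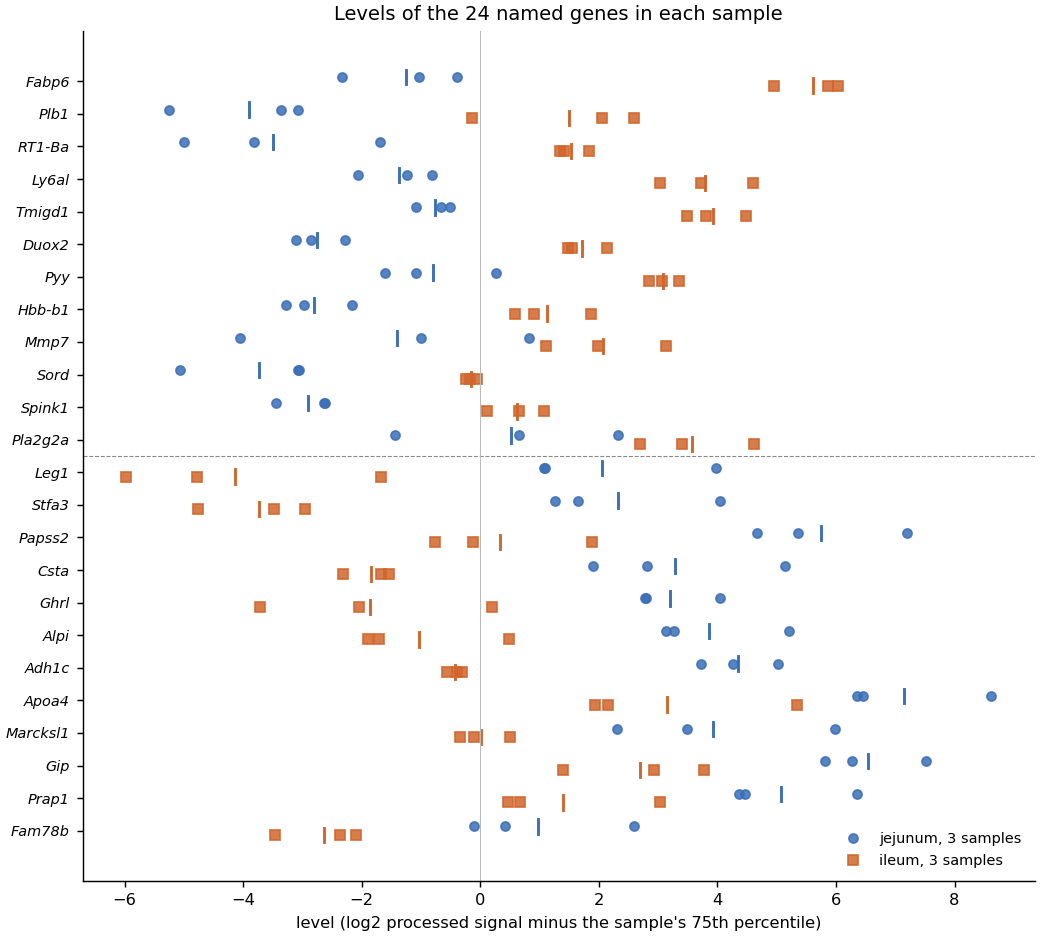
Level (log2 signal minus the 75th percentile, horizontal axis) of the 12 largest rises, above the dashed line, and the 12 largest falls, below it, in each jejunal sample (blue circles) and ileal sample (orange squares), with vertical ticks at the group means. The groups do not overlap, as the rule required, and come closest in Mmp7 and Pla2g2a, where jejunum 3 is the highest jejunal sample.

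Brush border enzymes that release sugars and phosphate fell. Of 6 carbohydrases and phosphatases tested 4 were lower and none higher, with a median of -1.97. Alpi, intestinal alkaline phosphatase, was 5.20, 3.26 and 3.13 in jejunum and -1.89, 0.48 and -1.71 in ileum, 31.8-fold lower (-4.99 ± 0.54, adjusted p = 8.98e-05). Lct, lactase, was 1.43, 0.07 and 0.22 in jejunum and -3.77, -0.12 and -3.51 in ileum (-3.07 ± 0.77, adjusted p = 0.0329). Si, sucrase-isomaltase, was 6.76, 4.28 and 4.52 in jejunum and 2.42, 3.96 and 1.53 in ileum (-2.65 ± 0.61, adjusted p = 0.0226). Treh, trehalase, was 2.43-fold lower (adjusted p = 0.0329). Ileum 2 was close to the lower jejunal samples in Lct and Si and well below them in Alpi. Without jejunum 1, ileum 1 or ileum 3 only Alpi kept its call.

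The promoters of Alpi and Lct are shown as those of a call that held and a call that did not, with sequences known to be bound by intestinal transcription factors in capitals: CAAAGTCCA for HNF4, TTTATG for the CDX factors and AGATAA for GATA factors, on both strands. They come from RefSeq on build GRCr8, Alpi at chr9:95224731-95225030, minus strand, and Lct at chr13:42376823-42377122, minus strand.
Alpi: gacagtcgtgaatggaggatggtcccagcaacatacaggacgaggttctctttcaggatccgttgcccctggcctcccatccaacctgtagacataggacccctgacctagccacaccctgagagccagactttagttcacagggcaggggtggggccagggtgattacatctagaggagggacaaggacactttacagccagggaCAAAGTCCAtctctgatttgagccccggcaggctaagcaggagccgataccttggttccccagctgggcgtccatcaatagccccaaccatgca
Lct: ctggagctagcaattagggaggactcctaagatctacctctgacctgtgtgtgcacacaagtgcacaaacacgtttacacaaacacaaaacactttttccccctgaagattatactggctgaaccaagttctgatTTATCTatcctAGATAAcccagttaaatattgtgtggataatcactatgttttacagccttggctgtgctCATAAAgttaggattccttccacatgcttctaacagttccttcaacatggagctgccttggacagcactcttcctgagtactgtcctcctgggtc
Alpi holds the HNF4 letters at -44. Lct holds the CDX letters, on the opposite strand, at -45, and the GATA letters at -115 and -104. Of 33469 promoters of this length 0.391% hold CAAAGTCCA, 12.7% TTTATG and 11.6% AGATAA, so the shorter words are common. No motif here overlaps another.

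Peptidases and lipases of the brush border went both ways. Of 19 tested 3 were higher (Plb1, Naaladl1 and Xpnpep2) and 4 lower (Tmprss15, Enpp3, Mme and Ace), with a median of -0.59. Naaladl1, a dipeptidase, was 1.49, 0.52 and 0.63 in jejunum and 2.81, 3.12 and 2.74 in ileum (1.95 ± 0.28, adjusted p = 0.00115). Tmprss15, enteropeptidase, which activates trypsinogen, was -0.31, -1.69 and -2.14 in jejunum and not well above background in any ileal sample, so it was at least 3.62-fold lower in ileum (adjusted p = 0.000824). Mme, neprilysin, was 5.35-fold lower and Enpp3, an ectonucleotide pyrophosphatase, 7.04-fold lower. Plb1, Naaladl1 and Tmprss15 kept their calls under all alternatives, and 4 of the 7 calls remained without ileum 3. Xpnpep2, Ace, Mme and Enpp3 each lost the call under at least 1 alternative. Among settings that used all isolations of both segments, adjusted p-values reached 0.173 for Xpnpep2 and 0.158 for Ace. They reached 0.0694 for Mme and 0.0532 for Enpp3.

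Sugar uptake and fructose metabolism had the highest share of falls of any list: 10 of 13 tested genes were lower and none higher, with a median of -1.84. Slc2a5, the fructose transporter GLUT5, was 5.09, 2.19 and 2.23 in jejunum and 0.43, 1.27 and -0.84 in ileum, 8.49-fold lower (-3.09 ± 0.60, adjusted p = 0.00927). G6pc1, the catalytic subunit of glucose-6-phosphatase, was 3.52, 1.52 and 1.74 in jejunum and -0.61, -0.11 and -0.68 in ileum, 7.05-fold lower (adjusted p = 0.00072). In both genes jejunum 1 was the highest sample and the ileal samples lay below every jejunal one. Khk, ketohexokinase, fell 4.61-fold and the sodium glucose cotransporter Slc5a1 fell 2.30-fold (adjusted p = 0.0366). Without jejunum 1 or without ileum 1, 6 of the 10 calls remained, and without ileum 3, 4 of them. The call of G6pc1 held throughout.

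Of 29 fat absorption genes tested 9 were lower, none higher and 20 not called, with a median of -1.15. The list mean was 3.35, 2.04 and 2.30 in jejunum and 1.08, 2.06 and 1.10 in ileum, so that ileum 2 lay within the jejunal range. Apoa4, an apolipoprotein of chylomicrons, was 8.62, 6.35 and 6.46 in jejunum and 2.15, 5.34 and 1.94 in ileum, 17.1-fold lower (-4.10 ± 0.68, adjusted p = 0.00343). Creb3l3, a membrane-bound transcription factor of lipid genes, was 6.05, 4.35 and 4.74 in jejunum and 1.47, 3.77 and -0.03 in ileum, 10.7-fold lower (adjusted p = 0.00702). Scarb1, a lipoprotein and sterol receptor, was 2.92, 1.68 and 2.13 in jejunum and -1.11, 1.04 and -1.13 in ileum, 6.28-fold lower (adjusted p = 0.00455). Again ileum 2 was the highest ileal sample and jejunum 1 the highest jejunal one. Mttp, which loads lipid onto apolipoprotein B, fell 4.17-fold with an adjusted p of 0.0412. Fabp1, a fatty acid binding protein, was saturated in all 3 jejunal samples and in 1 ileal one, so no fold is given, with 8.65, 6.91 and 7.46 in jejunum and 4.55, 6.37 and 5.15 in ileum (adjusted p = 0.0073), and quantile normalisation gave a difference of -0.75 with an adjusted p of 0.218. The sterol transporter Npc1l1 missed the threshold (-1.53 ± 0.44, adjusted p = 0.0589). Apoa4 and Scarb1 alone kept their calls under all alternatives, and 3 of the 9 calls remained without jejunum 1, 4 without ileum 1 and 4 without ileum 3.

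Fatty acid oxidation and ketogenesis had 8 of 28 tested genes lower and none higher, with a median of -0.88. Angptl4, a lipase inhibitor, fell 3.59-fold (adjusted p = 0.00818). The oxidation genes Acadl, Hadh, Decr1, Acaa1a and Etfb fell 2.20-fold to 2.82-fold. These 5 are bright genes, and none of them kept its call under both quantile normalisation and normexp. Of the 8 calls, 4 remained without ileum 1 and 5 each without ileum 3 and jejunum 1.

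The genes called among those for minerals and vitamins were lower in ileum. Of 21 genes of iron, calcium, zinc and copper handling 7 were lower, with a median of -0.52. S100g, the calcium binding protein calbindin-D9k, was 6.37, 5.06 and 5.10 in jejunum and 2.99, 3.49 and 3.13 in ileum, 5.06-fold lower (-2.34 ± 0.31, adjusted p = 0.000608). Trpv6, the apical calcium channel, was 1.39, 0.83 and 0.85 in jejunum and -1.14, -0.75 and -0.83 in ileum, 3.93-fold lower (adjusted p = 0.000193). Slc40a1, the iron exporter ferroportin, was -1.10, -1.82 and -2.34 in jejunum and -4.04, -3.97 and -3.59 in ileum, 4.51-fold lower (adjusted p = 0.00369). The ileal samples of S100g and Trpv6 lay close together, and both calls held under all alternatives. Slc31a1, a copper importer, fell 3.28-fold. The ferritin chains Fth1 and Ftl1 were called lower at -1.66 and -1.42, yet under normexp the differences were -0.06 and 0.05. Of 9 vitamin transporters tested, Folr1, a folate receptor, was lower (2.16-fold, adjusted p = 0.0364). At an unadjusted p below 0.05, 1 of the 9 was higher and 1 lower, and 2.79% of all genes were called lower. Folr1 lost its call without jejunum 1 (0.191), without any 1 of the ileal samples and under normexp (0.0636).

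Retinoid handling had 5 of 18 tested genes lower and none higher, with a median of -0.52. Adh1c, an alcohol dehydrogenase that oxidises retinol, was 4.26, 5.03 and 3.73 in jejunum and -0.57, -0.31 and -0.39 in ileum, 28.7-fold lower (-4.84 ± 0.28, adjusted p = 1.05e-07). Aldh1a1, which makes retinoic acid from retinal, was 2.64, 1.12 and 1.22 in jejunum and -0.58, -0.14 and -0.88 in ileum, 4.53-fold lower (adjusted p = 0.00235). Rbp2, the enterocyte retinol binding protein, was 6.58-fold lower (adjusted p = 0.0136). Adh7 was not well above background in any ileal sample and at least 1.56-fold lower. Adh1c and Aldh1a1 kept their calls under all alternatives, and 3 of the 5 calls remained without ileum 1, ileum 3 or jejunum 1.

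Of 52 genes for cytochromes P450, conjugating enzymes and drug transporters 11 were lower and 1 higher, with a median of -0.59. Gsta2, a glutathione transferase, was 8.68, 6.39 and 7.63 in jejunum and 3.74, 4.48 and 3.37 in ileum, 13.1-fold lower (-3.71 ± 0.51, adjusted p = 0.000824). Cyp4f1, a fatty acid hydroxylase, was 8.14, 5.91 and 7.14 in jejunum and 2.98, 5.12 and 2.63 in ileum, 11.4-fold lower (adjusted p = 0.00272). Ugt2b7, a glucuronosyltransferase, was 3.52, 2.79 and 2.16 in jejunum and 0.10, 0.09 and 0.14 in ileum, 6.77-fold lower (adjusted p = 0.000387). The ileal samples of Ugt2b7 were almost equal. Members of these families are similar in sequence, so a probe may read more than its own gene. The rise was in Abcb1b, a P-glycoprotein (2.75-fold, adjusted p = 0.0251), which lost its call without ileum 1 (0.0566) and under normexp (0.111). Gsta2, Gsta3, Cyp4f1, Ugt2b7 and Ces1d held under all alternatives, and 6 of the 12 calls remained without ileum 1 or jejunum 1 and 7 without ileum 3.

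Among 17 tested amino acid and peptide transporters 2 were called, both higher, while the median was -0.45. At an unadjusted p below 0.05, 3 were higher and 6 lower. Over all 33530 genes 1.46% were called higher and 2.79% lower, and 3731 were higher and 3453 lower at that unadjusted p. Slc1a1, a glutamate transporter, was -2.80, -1.86 and -1.49 in jejunum and -0.74, -0.70 and -0.98 in ileum (1.35 ± 0.34, adjusted p = 0.0337). Slc43a1 rose 2.75-fold at the threshold (adjusted p = 0.049). Neither held without jejunum 1, ileum 2 or ileum 3, with Cy3 samples alone, with scan day as a random block or under normexp. The peptide transporter Slc15a1 was not called, with 5.79, 3.13 and 3.57 in jejunum and 2.48, 3.50 and 2.85 in ileum (adjusted p = 0.211). Of 11 genes of citrulline and arginine synthesis 2 were lower, Oat and Aldh18a1, and Oat reversed to 0.33 under quantile normalisation. Cholesterol synthesis, with 25 genes tested and a median of -0.05, had 1 gene higher and 1 lower, the latter Fdps, an isoprenoid synthase (-0.91, adjusted p = 0.0489), which turned to 0.14 under normexp.

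**Figure D3:**
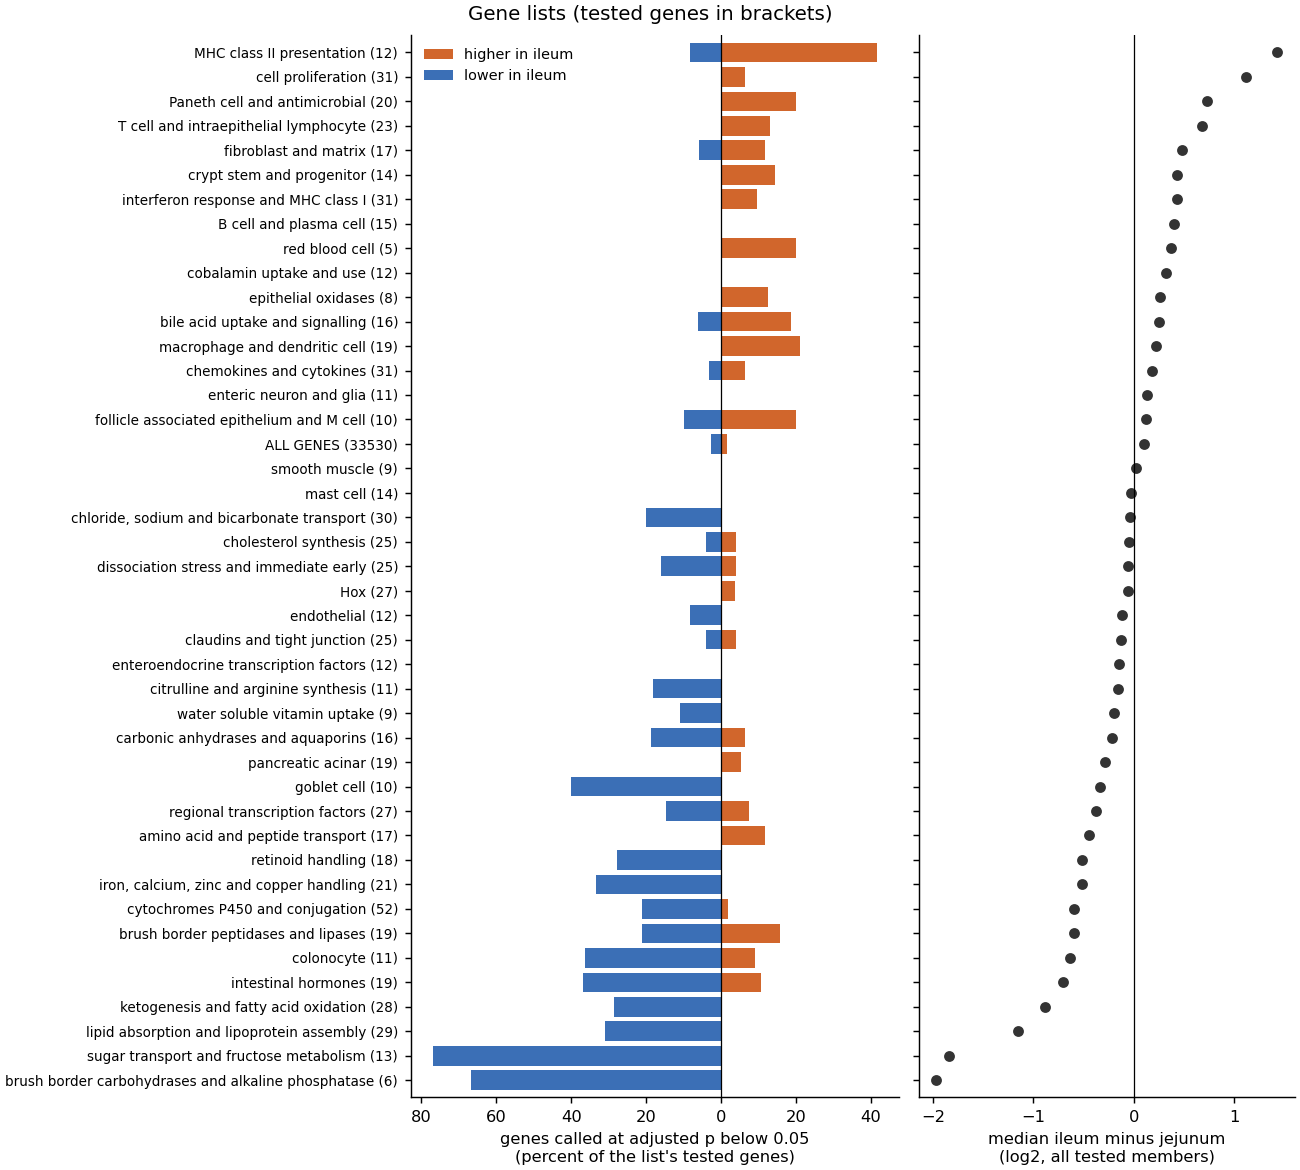
Left, percent of the tested genes of each of 42 lists called higher (orange, to the right) or lower (blue, to the left) in ileum, with the number tested in brackets. Right, the median difference (log2) of all tested members. All 33530 genes are shown as a row for comparison, at 1.46% higher and 2.79% lower with a median of 0.10, and MHC class II presentation is at the top and brush border carbohydrases at the bottom.

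Of 19 hormones and granule proteins of enteroendocrine cells tested 2 were higher, 7 lower and 10 not called, with a median of -0.70. Pyy, peptide YY of the L cells, was -1.60, -1.09 and 0.27 in jejunum and 3.07, 2.84 and 3.36 in ileum, 16.1-fold higher (4.01 ± 0.35, adjusted p = 1.34e-05). Tac1, the precursor of substance P, rose 4.16-fold (adjusted p = 0.0127). Ghrl, ghrelin, was 4.05, 2.79 and 2.78 in jejunum and -3.71, 0.19 and -2.04 in ileum, 34.5-fold lower (-5.11 ± 0.64, adjusted p = 0.000362). Gip, the incretin of the K cells, was 7.51, 5.82 and 6.27 in jejunum and 2.93, 3.78 and 1.39 in ileum, 14.9-fold lower (adjusted p = 0.000336). Cck, cholecystokinin, was 4.26, 2.89 and 3.11 in jejunum and -0.41, 0.97 and 0.58 in ileum, 8.07-fold lower (adjusted p = 0.000824). For Pyy, Ghrl, Gip and Cck the segments were apart in every sample and the calls held under all alternatives.

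The granule proteins Chga and Chgb fell with the upper gut hormones. Chgb was 7.54, 5.96 and 6.35 in jejunum and 4.14, 3.87 and 3.80 in ileum, 6.67-fold lower (adjusted p = 0.00072), and Chga was 5.09-fold lower (adjusted p = 0.00143). Sst, somatostatin, fell 3.11-fold (adjusted p = 0.0246) and Tph1, which makes serotonin, 2.22-fold (adjusted p = 0.036). Both lost their calls without ileum 1, without ileum 3 or without jejunum 1. Gcg, the glucagon and GLP-1 precursor also made in L cells, was not called, with 2.5, 1.44 and 2.90 in jejunum and 3.39, 2.02 and 2.16 in ileum (0.22 ± 0.51, adjusted p = 0.844). Nts, neurotensin, was 3.18, 2.29 and 2.95 in jejunum and 2.71, 2.96 and 2.80 in ileum (adjusted p = 0.964). Samples of the segments overlapped in both. Among 12 enteroendocrine transcription factors limma called none, none reached an unadjusted p below 0.05, and their median was -0.15. The share called over all genes was 4.26%, so a lack of calls among 12 is near it.

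Regional transcription factors had 2 of 27 tested members higher and 4 lower, with a median of -0.38. Pdx1, a factor of the upper intestine and pancreas, was 1.41, 1.33 and 0.84 in jejunum and -2.14, -1.90 and -1.77 in ileum, 8.76-fold lower (-3.13 ± 0.29, adjusted p = 1.67e-05). Gata4, which sets jejunal identity in mouse intestine, was 2.31, 2.43 and 2.71 in jejunum and 0.57, 1.03 and 0.00 in ileum, 3.87-fold lower (adjusted p = 0.00156). Osr2 was -1, -0.52 and 0.76 in jejunum and 1.77, 1.87 and 2.10 in ileum, 4.59-fold higher (adjusted p = 0.00617). All 3 calls held under all alternatives. Hnf4a, a factor of enterocyte differentiation, fell 3.82-fold (adjusted p = 0.00375), but with the mean over its probes the adjusted p was 0.0796. Cdx1 rose 2.84-fold at the threshold (adjusted p = 0.0488), and quantile normalisation ended its call (0.0759). Gata6 was not called (-1.34, adjusted p = 0.0595), nor was Cdx2 (-0.47, adjusted p = 0.281), whose sign turned under quantile normalisation (0.29) and normexp (0.61). Of 27 Hox genes 1 was called, near the share of 4.26% over all genes. Hoxa4, not well above background in any jejunal sample, was at least 1.75-fold higher (adjusted p = 0.0192).

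Several genes that were high in ileum were also high in colon, as the levels in all 5 segments show without a test. Pyy was -1.71 ± 0.04 (SD, n = 3) in stomach, -2.38 ± 0.56 in duodenum, -0.81 ± 0.97 in jejunum, 3.09 ± 0.26 in ileum and 4.97 ± 0.19 in colon. Ileal samples lay between the jejunal and the colonic ones without overlap. Duox2 was -0.22 ± 0.22, -2.08 ± 0.34, -2.75 ± 0.43, 1.71 ± 0.36 and 1.34 ± 0.24 in the same order, and ileum and colon overlapped. Spink1 stood at 0.61 ± 0.48 in ileum and 3.91 ± 0.26 in colon. Fabp6, in contrast, was -4.50 ± 0.21, -2.81 ± 0.07, -1.25 ± 0.99, 5.62 ± 0.58 and -0.53 ± 0.24, and Plb1 was 1.5 ± 1.45 in ileum and between -4.68 and -3.20 on average elsewhere. Ileum alone was high in both.

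For some genes the ileum was a trough between jejunum and colon. Adh1c was -1.57 ± 0.07 (SD, n = 3) in stomach, 6.55 ± 0.08 in duodenum, 4.34 ± 0.66 in jejunum, -0.43 ± 0.13 in ileum and 5.44 ± 0.21 in colon. S100g was -0.95 ± 0.11, 7.39 ± 0.24, 5.51 ± 0.74, 3.20 ± 0.26 and 5.71 ± 0.22, with jejunum and colon overlapping. Pdx1 was lower in each segment after the duodenum, with 2.89 ± 0.22 in duodenum, 1.19 ± 0.31 in jejunum, -1.93 ± 0.19 in ileum and -2.79 ± 0.35 in colon. Gastric and colonic arrays were read with other versions of the scanner software, and so were those of ileum 2 and 3 against ileum 1 and the jejunal samples, and the part of the version in these levels was not tested.

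**Figure D4:**
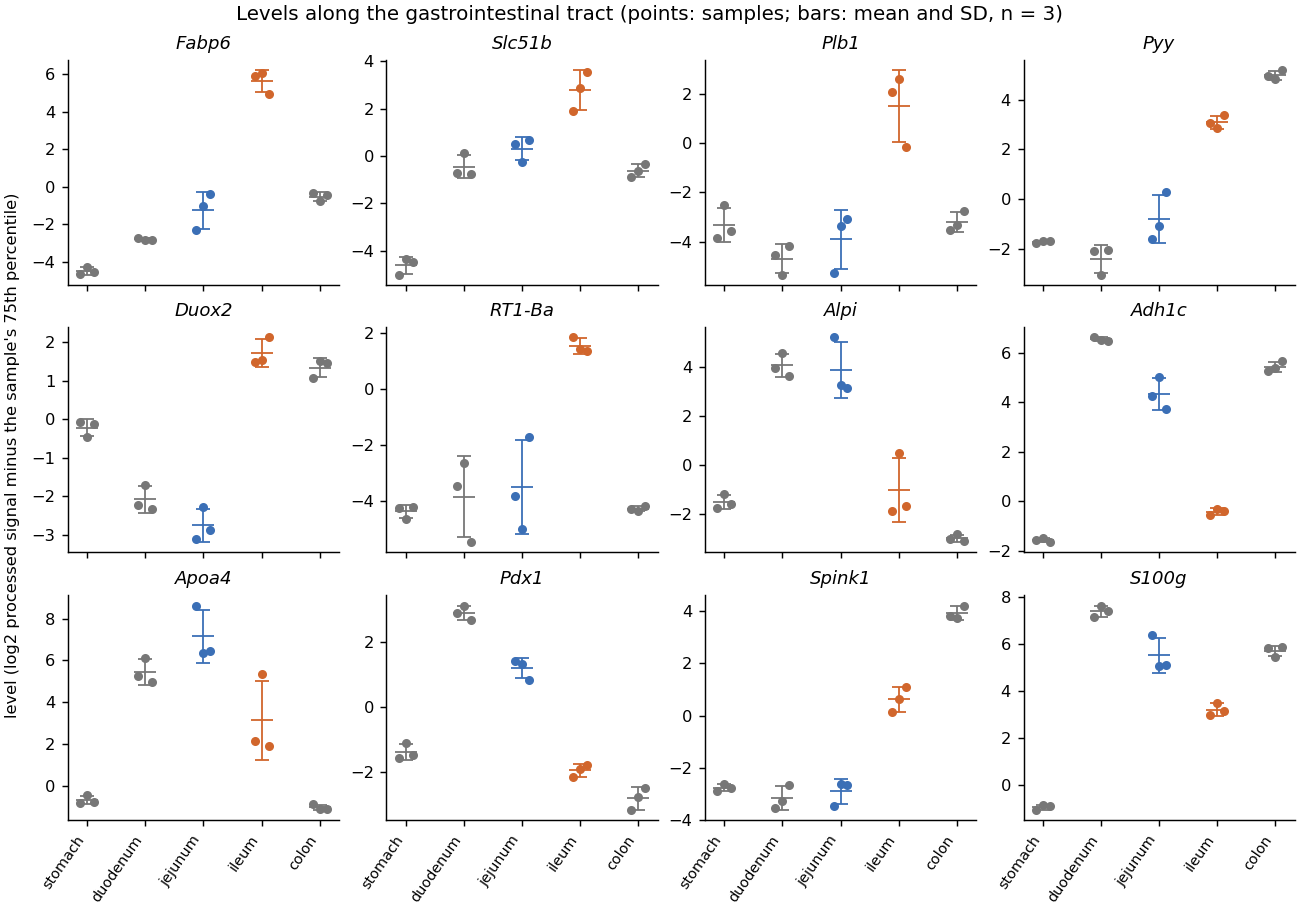
Level (log2 signal minus the 75th percentile, vertical axis, scaled for each gene) of 12 genes in stomach, duodenum, jejunum (blue), ileum (orange) and colon, with points for samples and bars for the mean and SD of 3 samples. Fabp6, Plb1 and RT1-Ba are high in ileum alone, Pyy and Duox2 in ileum and colon, and Adh1c and S100g are lower in ileum than in both neighbours.

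MHC class II presentation had the highest share of rises among lists of over 5 genes, with 5 of 12 tested genes higher, 1 lower and a median of 1.43. The class II molecules, pairs of an alpha and a beta chain that show peptides to CD4 T cells, rose as chains of both rat loci. RT1-Ba was -3.81, -5 and -1.70 in jejunum, where 1 of 3 samples was well above background, and 1.84, 1.41 and 1.34 in ileum, 37.9-fold higher (5.24 ± 0.64, adjusted p = 0.000271). RT1-Bb was -0.53, -1.03 and -0.02 in jejunum and 2.57, 3.12 and 1.79 in ileum, 8.71-fold higher (adjusted p = 6.73e-05). The D locus followed, with RT1-Da 6.54-fold (adjusted p = 0.00332) and RT1-Db1 6.41-fold higher (adjusted p = 0.000229). RT1-Da was 1.15, -0.50 and 2.23 in jejunum and 3.57, 3.58 and 3.41 in ileum. RT1-Db1 was 0.69, -0.42 and 0.78 in jejunum and 3.36, 2.99 and 2.49 in ileum. Jejunum 2 was the lowest sample in each of these genes, and the ileal samples were close together in RT1-Ba and RT1-Da.

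Cd74, the invariant chain that escorts class II molecules, was 2.33, -0.12 and 2.78 in jejunum and 4.31, 4.61 and 4.14 in ileum, 7.32-fold higher (adjusted p = 0.00375). The class II transactivator Ciita was higher in all ileal samples (0.10, -0.25 and -0.39) than in the jejunal ones (-1.14, -2.26 and -1.49) but was not called (1.21 ± 0.57, adjusted p = 0.225). The member that fell was Ifi30, a lysosomal thiol reductase (-1.03, adjusted p = 0.0395), which gave -0.37 under quantile normalisation and 0.00 under normexp, with no call. The 4 RT1 genes kept their calls under all alternatives, and Cd74 lost its call with the 6 ileal and jejunal samples alone (0.0589). Class II genes of different loci are similar, and signal shared between their probes was not tested.

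The promoters of the 4 RT1 genes are shown because these genes rose together and because class II promoters carry conserved boxes. Capitals mark ATTGG, the core of the Y box bound by NF-Y, and AGCAACNGATG, a form of the X box bound by RFX, on either strand. They come from RefSeq on build GRCr8, in the direction of transcription: RT1-Ba at chr20:4576807-4577106, plus strand, RT1-Bb at chr20:4604069-4604368, minus strand, RT1-Da at chr20:4515165-4515464, plus strand, and RT1-Db1 at chr20:4560113-4560412, minus strand.
RT1-Ba: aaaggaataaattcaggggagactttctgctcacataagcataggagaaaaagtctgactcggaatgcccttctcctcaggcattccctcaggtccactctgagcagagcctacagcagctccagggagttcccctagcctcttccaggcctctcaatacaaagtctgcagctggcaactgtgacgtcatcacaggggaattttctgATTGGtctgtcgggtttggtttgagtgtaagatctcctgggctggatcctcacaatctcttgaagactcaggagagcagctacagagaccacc
RT1-Bb: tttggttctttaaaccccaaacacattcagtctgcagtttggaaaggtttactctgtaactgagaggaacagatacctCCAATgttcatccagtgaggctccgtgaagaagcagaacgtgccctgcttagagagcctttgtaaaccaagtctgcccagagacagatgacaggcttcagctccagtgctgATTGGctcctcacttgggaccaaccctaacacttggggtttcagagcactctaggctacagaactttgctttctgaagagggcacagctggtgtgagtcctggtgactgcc
RT1-Da: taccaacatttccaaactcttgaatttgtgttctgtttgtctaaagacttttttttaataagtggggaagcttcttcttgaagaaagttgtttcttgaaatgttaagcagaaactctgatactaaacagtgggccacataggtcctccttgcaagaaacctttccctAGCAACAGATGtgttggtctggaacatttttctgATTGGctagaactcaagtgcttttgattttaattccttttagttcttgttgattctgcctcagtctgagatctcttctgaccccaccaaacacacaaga
RT1-Db1: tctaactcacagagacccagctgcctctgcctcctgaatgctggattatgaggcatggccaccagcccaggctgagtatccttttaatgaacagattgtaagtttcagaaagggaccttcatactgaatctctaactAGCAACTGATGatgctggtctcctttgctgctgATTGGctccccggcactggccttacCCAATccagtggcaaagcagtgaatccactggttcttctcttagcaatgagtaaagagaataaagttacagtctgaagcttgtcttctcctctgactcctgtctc
ATTGG stands on the coding strand at -43 in RT1-Ba, -61 in RT1-Bb, -49 in RT1-Da and -80 in RT1-Db1. It also stands on the opposite strand at -172 in RT1-Bb and -55 in RT1-Db1. These letters occur in 37.5% of the 33469 promoters. The X box letters were found at -83 in RT1-Da and -113 in RT1-Db1, upstream of the Y box, and in 16 promoters of this length in all (0.0478%). The letters of the X box were chosen after these promoters had been read.

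Of 31 interferon response and class I genes 3 were higher, among them Gbp2 and Ifng, with a median of 0.43, and 11 were higher and 1 lower at an unadjusted p below 0.05. Over all genes 1.46% were called higher, and 3731 of 33530 were higher and 3453 lower at an unadjusted p below 0.05. Gbp2, an interferon-induced GTPase, was -2.28, -2.82 and -1.34 in jejunum and 0.02, -0.42 and 0.40 in ileum, 4.86-fold higher (adjusted p = 0.00175). Of 31 chemokines and cytokines 2 were higher and 1 lower, with a median of 0.18, where 1.46% of all genes were called higher and 2.79% lower. Cxcl13, which draws B cells into follicles, was -5.08, -4.04 and -3.65 in jejunum and -0.27, -1.37 and -1.53 in ileum, 9.14-fold higher (3.19 ± 0.48, adjusted p = 0.00167). Ccl6, a chemokine of myeloid cells, was -1.52, -1.01 and -0.78 in jejunum and 1.57, 1.46 and 2.09 in ileum, 7.45-fold higher (adjusted p = 2.38e-05). Gbp2, Cxcl13 and Ccl6 kept their calls under all alternatives, while Ifng lost its call without ileum 1, ileum 3 or jejunum 1.

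Of 23 T cell and intraepithelial lymphocyte genes 3 were higher, among them Cd3e and Cd8a, with a median of 0.68. The mean level of the whole list was -1.28 to -0.48 in jejunum and -0.55 to 0.20 in ileum, so the ranges overlapped. Cd8a, the CD8 alpha chain, was -2.34, -2.41 and -2.85 in jejunum and -0.69, -0.48 and 0.14 in ileum, 4.23-fold higher (adjusted p = 0.00424). Of 19 macrophage and dendritic cell genes 4 were higher, Aif1, Cd14, C1qa and C1qb, with list means of -0.71 to -0.35 in jejunum and -0.46 to -0.01 in ileum. Aif1 was 4.86-fold higher (adjusted p = 0.0121), and 1 of the 4 calls remained without jejunum 1 or ileum 1 and 2 without jejunum 2 or ileum 3. None of 15 B cell or 14 mast cell genes was called by limma, while in each list 3 higher and 1 lower reached an unadjusted p below 0.05. For all 33530 genes the share called was 4.26%, and 3731 were higher and 3453 lower at that unadjusted p. The B cell list had means of -2.70 to -1.56 in jejunum and -1.99 to -1.47 in ileum. Class II genes are expressed by such cells as well as by epithelium, and their part in the class II rise was not tested.

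Of 10 genes of follicle-associated epithelium and M cells 2 were higher, Anxa5 (3.02-fold) and Ctsh (1.94-fold), and Marcksl1 was lower. Marcksl1 was 5.99, 2.31 and 3.48 in jejunum and -0.11, 0.50 and -0.34 in ileum (-3.91 ± 0.63, adjusted p = 0.00268). The list mean was -1.54 to -1.39 in jejunum and -1.60 to -1.45 in ileum, in overlapping ranges. Of 8 epithelial oxidases Duox2 was the member called.

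Paneth cell and antimicrobial genes had 4 of 20 tested members higher and none lower, with a median of 0.73. Mmp7, matrilysin, was -4.06, -1 and 0.82 in jejunum and 1.11, 1.99 and 3.13 in ileum, 13.3-fold higher (3.74 ± 0.86, adjusted p = 0.0232). Pla2g2a, a secreted bactericidal phospholipase, was -1.44, 0.66 and 2.32 in jejunum and 2.69, 3.40 and 4.62 in ileum, 9.86-fold higher (adjusted p = 0.0089). Reg3g, a lectin that kills Gram-positive bacteria, was 3.63, 1.18 and 2.19 in jejunum and 4.06, 5.78 and 5.09 in ileum, 6.17-fold higher (adjusted p = 0.00587). Reg3b was saturated in all 3 ileal samples and at least 3.66-fold higher (adjusted p = 0.0326). The jejunal samples were widely spread in Mmp7, with jejunum 1 lowest. Lyz2, lysozyme, was 0.53, 3.58 and 4.37 in jejunum and 3.55, 4.07 and 4.94 in ileum and was not called (1.46, adjusted p = 0.253), except under normexp (2.40, adjusted p = 0.0175). Without jejunum 1 the adjusted p of Mmp7 was 0.106, and without ileum 3 it was 0.0997. Of the 4 calls, 2 remained without ileum 2 and 2 without ileum 3.

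The lists of crypt and cycling genes had their lowest means in jejunum 1. Of 31 proliferation genes 2 were called higher, Mcm2 and Cenpf, while the median of the list was 1.12 against 0.10 for all genes. At an unadjusted p below 0.05, 24 of the 31 were higher and none lower, and the smallest difference in the list was 0.20. Of all 33530 genes, 3731 were higher and 3453 lower at that p. The list mean was -1.08, 0.61 and 0.50 in jejunum and 1.23, 1.03 and 1.05 in ileum. Mcm2, a replication helicase subunit, was -3.27, -0.08 and -0.80 in jejunum and 1.22, 0.85 and 0.64 in ileum (2.41 ± 0.65, adjusted p = 0.045). Of 14 crypt stem and progenitor genes Olfm4 and Prom1 were higher. Olfm4, a marker of crypt base cells, was -1.12, 2.33 and 2.04 in jejunum and 3.47, 2.75 and 3.81 in ileum (2.46 ± 0.67, adjusted p = 0.0479). Lgr5 and Mki67 were not called (adjusted p = 0.693 and 0.258). Neither list kept a call without jejunum 1, without ileum 1 or without ileum 3. None of these 4 calls held with scan day as a random block. The share of crypt cells in each isolation was not measured apart from these genes, and its part in the other lists was not tested.

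**Figure D5:**
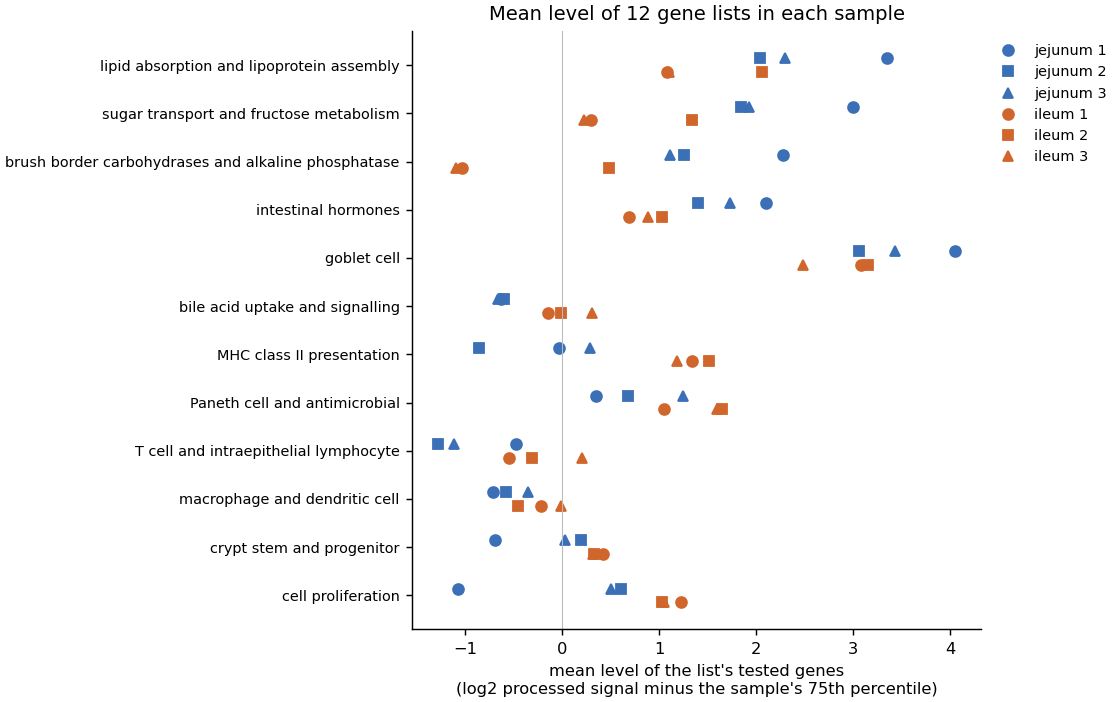
Mean level (log2 signal minus the 75th percentile, horizontal axis) of the tested genes of 12 lists in jejunum 1 to 3 (blue) and ileum 1 to 3 (orange), with a marker shape for each replicate number. Jejunum 1 is the highest sample in the lists of digestion and hormones and the lowest in those of crypt and cycling genes, and ileum 2 is the highest ileal sample in the digestive lists.

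Goblet cell genes were called lower in 4 of 10 tested members, Tff3, Zg16, Clca1 and Agr2, with a median of -0.34. Tff3, the trefoil peptide of mucus, was 8.26, 6.91 and 7.27 in jejunum and 5.85, 6.13 and 4.88 in ileum (-1.88 ± 0.34, adjusted p = 0.00617), saturated in 2 ileal samples. Agr2 and Clca1 were saturated in all 3 ileal samples, so no fold is given for them. Under quantile normalisation the differences were -0.49 for Tff3, 0.05 for Clca1 and 0.43 for Agr2, and under normexp none of the 4 was called. Of the 4 calls 1 remained without ileum 1, ileum 3 or jejunum 1. The main mucin Muc2, not saturated in any of these samples, was 0.17, -0.53 and -0.16 in jejunum and -0.47, 0.05 and -0.35 in ileum and was not called (-0.15 ± 0.31, adjusted p = 0.818).

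Ion and water transport changed in a few genes. Of 30 genes of chloride, sodium and bicarbonate transport 6 were lower and none higher, with a median of -0.04. Guca2b, uroguanylin, was 4.74, 3.89 and 3.18 in jejunum and 1.18, 2.98 and 1.26 in ileum, 4.72-fold lower (-2.24 ± 0.42, adjusted p = 0.00656). Of these 6 calls 2 remained without ileum 1, ileum 3 or jejunum 1. Among 16 carbonic anhydrases and aquaporins Aqp8, Car1 and Car2 were lower and Aqp4 higher. Aqp8, a water channel, was -0.81, -1.31 and -1.01 in jejunum and -3.18, -3.67 and -2.99 in ileum, 4.55-fold lower (adjusted p = 0.00478), with 1 of 3 ileal samples well above background, and this call held under all alternatives. Of 25 claudins and junction genes Cldn2, the pore-forming claudin, was 4.54-fold higher (adjusted p = 0.0358) and Cldn22 2.42-fold lower, and neither call held without jejunum 1. Over all genes 1.46% were called higher and 2.79% lower.

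Most markers of cells outside the epithelium were not called, but this held for all genes, of which 4.26% were called in either direction. A list without calls therefore does not show an equal share of such cells. Of 17 fibroblast and matrix genes Col6a1 and Vim were higher and Col1a1 lower, with list means of -2.16 to -1.69 in jejunum and -1.88 to -1.19 in ileum. None of 9 smooth muscle genes and none of 11 neuron and glia genes was called by limma, with 1 higher and 1 lower muscle gene and 1 lower neuron or glia gene at an unadjusted p below 0.05, and 1 of 12 endothelial genes, Robo4, was lower. Hbb-b1, a beta globin of red blood cells, was -3.27, -2.97 and -2.17 in jejunum and 0.91, 0.58 and 1.86 in ileum, 16.0-fold higher (4 ± 0.35, adjusted p = 1.27e-05), and was the member called of 5 red blood cell genes, whose list mean was -1.92 to -1.74 in jejunum and -0.94 to -0.43 in ileum. The part of these cells in other results was not tested, and adult beta globin genes are near-identical, so the probe may read more than Hbb-b1. Of 19 acinar genes Spink1 was called, with -3.45, -2.62 and -2.64 in jejunum and 0.12, 0.65 and 1.07 in ileum, while the list mean was -2.42 to -1.86 in jejunum and -2.38 to -2.06 in ileum. Of 11 colonocyte genes 1 was higher and 4 lower, with list means of -0.48 to -0.03 in jejunum and -1.35 to -0.85 in ileum. Of 25 dissociation stress and immediate early genes 1 was higher, Ier3, and 4 were lower, among them Jun (3.12-fold, adjusted p = 0.0129), with list means of 1.68 to 2.35 in jejunum and 1.71 to 1.77 in ileum. Over all genes 1.46% were called higher and 2.79% lower. Jun was at -0.19 under normexp (adjusted p = 0.781) and lost its call under quantile normalisation (0.0949). Of the 5 calls 1 remained under quantile normalisation, and none under normexp, without jejunum 1 or without ileum 3.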

How the data were processed

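Agilent whole rat genome arrays read in both dyes were used as single channels for 15 samples, 3 each of gastric, duodenal, jejunal, ileal and colonic mucosal cells, were read from the scanner files. Per the file headers, the authors deposited Feature Extraction output of several software versions. The value used is the processed signal of the labelled dye, an intensity that the software had corrected for background and normalised between the dyes of an array, per the file headers. Each jejunal sample shared its array with a duodenal sample, as the same file values in both channels show. The authors' deposited value table holds the same intensities, within 0.02 on the log2 scale for 100.0% of 43628 features, with no centring and not as ratios. Per the series text, the authors compared normalised intensities in Genespring; how those were computed in detail is not given in the sources used here.

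Here log2 signals were reduced by each sample's 75th percentile, flagged and control spots were left out, and probes were kept if well above background in all 3 samples of at least 1 segment, leaving 38846 probes. Where a gene had several probes, the brightest on average stood for it, giving 33530 genes. The cut for well above background was unequal: its multiplier was 2.6 on gastric arrays and 13 on duodenal, jejunal and ileal ones. None was given for colonic arrays. On gastric arrays 95.4 to 97.1% of spots passed. Without the filter there were 35406 genes, and with it on ileal and jejunal samples alone 19870. Many of the 33530 genes were therefore kept through another segment. Of 41012 probes, 10914 were named by accession, 5660 by symbol, 3797 by an older symbol, and 20641 kept the name in the files. limma 3.58.1 in R 4.3.3 was fitted to all 15 samples with segment and dye as terms, the slide as a random block (correlation 0.361) and an intensity trend; tests were two-sided with Benjamini-Hochberg adjustment. Because the dye term is estimated from all segments, a difference can depart from that of the plain means. The number of arrays limits the precision; the median SE was 0.39. The fit was tested on simulated data, where it recovered 1 of 50 true differences of 1 log2 unit. Of those of 2 units it recovered 31 of 50, and of 3 units 50 of 50, with 9 false calls in all. A gene not called may therefore still differ by 1 or 2 log2 units. Figures were drawn with matplotlib 3.10.9.

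Named genes were the 12 largest rises and the 12 largest falls among called genes with a settled symbol and no overlap between segments, and called or uncalled members of the lists with a known role. Members, lists and tests were chosen with earlier results of these data known. A fold of a probe saturated, or not above background, in every sample of a segment is given as a lower bound. The 21 alternatives changed scaling, background correction, filters, dye, blocks, samples or probes, or left out 1 sample. Most changed 1 of these at a time. The fit of ileal and jejunal samples alone also dropped the dye term and the slide block. That of Cy3 samples alone also dropped the dye term, and the deposited value table was used with flagged spots kept. Normexp started from the raw signal, so it also left out the software's normalisation between dyes. Deviations of same-numbered ileal and jejunal samples from their segment means correlated at 0.195, 0.005 and 0.100, and those of differently numbered samples at -0.191 to 0.166. Deviations from a mean of 3 samples are tied to each other, so these values cannot decide whether numbers mark pairs. The numbers were not taken as pairs, and how isolations were numbered is not given in the sources used here. Promoters came from RefSeq on GRCr8 and matched by symbol for 11 of 11 genes looked up. Some genes of the lists are counted but not reported here by name.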

Additional observations from a re-analysis of the deposited data

How the results depend on the processing

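Of the 155 genes called among the lists and named genes, 52 kept call and direction under the alternatives that tested them and 103 lost the call under at least 1. The counts of 490 higher and 937 lower genes became 805 and 1473 where probes were filtered on ileal and jejunal samples alone (19870 genes tested), 236 and 379 with Cy3 samples alone, 215 and 497 with scan day as a random block, 92 and 168 in a fit of the 6 ileal and jejunal samples, and 301 and 411 without the intensity trend. Leaving out 1 sample gave 148 to 1724 higher and 303 to 1892 lower genes, lowest without ileum 3 and jejunum 1 and highest without jejunum 2. Fewer samples enter several of these fits. The fit of the 6 samples takes its spread from ileum and jejunum alone and has no dye term or slide block. Otherwise the cause was not tested. Quantile normalisation moved the median of all genes from 0.10 to -0.01 and the share of higher calls to 42.7%, and normexp moved them to -0.14 and 42.9%.

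Directions turned as follows, and the cause was not tested. Under quantile normalisation Agr2 was at 0.43, Cdx2 at 0.29, Clca1 at 0.05 and Oat at 0.33. Under normexp Agr2 was at 0.54, Cdx2 at 0.61, Clca1 at 0.29, Fdps at 0.14, Ftl1 at 0.05, Gstp1 at 0.12, Hsp90aa1 at 0.07, Jund at 0.19, Oat at 0.24 and Zg16 at 0.47. With the mean over its probes Col1a1 was at 0.03. Among uncalled genes, leaving out 1 sample moved Amn between -0.87 and 0.10 (0.01 without ileum 1, 0.10 without jejunum 1), Gcg between -0.21 and 0.53 (-0.21 without ileum 1, -0.18 without jejunum 2), Nts between -0.38 and 0.31 (-0.03 without ileum 2, -0.38 without jejunum 2) and Muc2 between -0.52 and 0.09 (0.09 without jejunum 1).

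With the replicate number as a block, 257 genes were higher and 448 lower. The deviations of same-numbered samples correlated at 0.195, 0.005 and 0.100, and whether a number marks anything shared was not tested further.

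Limits are the 3 isolations per segment, the confounding of slide and scan day with segment, a scanner software version in ileum 2 and 3 that no jejunal sample had, saturation of the brightest ileal probes and, for dim genes, signal near background in ileum 1 and jejunum 1, where 44.4% and 52.4% of spots were well above it.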
